A study of Homo sapiens with 8 samples.

Results

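The 37 genes of the human mitochondrial genome were followed through 3 comparisons of total RNA from the human leukaemia cell line K-562. Members were chosen by symbol, as every gene whose name starts with MT-, and comprise 13 messengers, 2 ribosomal RNAs and 22 transfer RNAs. The altered groups were wild-type cells expressing a FLAG-TASOR2 transgene, TASOR knockout cells, and TASOR knockout cells expressing a FLAG-TASOR transgene. Each was set against the same wild-type cells with a negative guide RNA, with 2 libraries in every group. TASOR belongs to the human silencing hub, a complex that represses LINE-1 elements, and TASOR2 is its paralog. Knockouts were clonal lines grown from single sorted cells after CRISPR/Cas9 transfection, and controls carried an empty lentiviral vector in place of a transgene. The labels give no guide for the FLAG-TASOR2 cells, so transgene and guide treatment cannot be told apart there. The sources used here do not name the promoter of the transgenes.

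Of the 37 genes, 11 were listed in the authors' deposited table for FLAG-TASOR2, all as higher, 0 in that for the knockout and 1 in that for the knockout with FLAG-TASOR. Together the 3 tables listed 1221 different genes. A gene appears in these tables only if its unadjusted p was below 0.05, its log2 fold change exceeded 1 in size and its log2 mean expression exceeded 1, so a gene that is not listed has no value here. An adjusted p of 0.05 was passed by 0 of the 11 mitochondrial genes with FLAG-TASOR2, against 0.0357% of all genes tested there, and by 0 genes of any kind (0%) in the knockout with FLAG-TASOR. None is therefore said to have risen. "Listed as higher" means only that the thresholds of the table were met.

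The mitochondrial genome is a small circle present in many copies per cell. Both strands are transcribed into long precursors that carry ribosomal RNAs, messengers and transfer RNAs in a row, and the transfer RNAs between them mark the places where the precursors are cut. The messengers encode core subunits of the respiratory chain and of ATP synthase, all other subunits being made from nuclear genes, and the ribosomal RNAs form the organelle's own ribosome. In RNA from whole cultures, more mitochondrial genomes per cell and more RNA per genome cannot be told apart.

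The sequences around the ribosomal RNA genes are shown because the largest listed fold changes lay there. On chrM of hg38, plus strand, MT-RNR1 and MT-RNR2 are separated only by the transfer RNA gene MT-TV. MT-TL1 follows MT-RNR2, and MT-ND1, the first messenger, starts 2 bases after it. Capitals mark the transfer RNA gene in the first and second sequences and the first codon in the third, where ATA is read as methionine in mitochondria.
MT-RNR1 end, MT-TV, MT-RNR2 start (chrM:1572-1700): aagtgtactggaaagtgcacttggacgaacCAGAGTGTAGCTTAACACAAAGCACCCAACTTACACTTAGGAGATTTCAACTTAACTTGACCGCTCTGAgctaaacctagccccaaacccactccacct
MT-RNR2 end, MT-TL1 (chrM:3200-3304): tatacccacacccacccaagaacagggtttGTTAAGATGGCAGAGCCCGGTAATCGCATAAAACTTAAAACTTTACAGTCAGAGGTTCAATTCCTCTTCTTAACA
MT-ND1 start (chrM:3307-3336): ATAcccatggccaacctcctactcctcatt

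The short messengers MT-ATP8 and MT-ND3 are shown because they had the highest fold changes among listed messengers. MT-ATP8 ends inside MT-ATP6, and capitals mark the 46 bases that the genes share. In the last part of MT-ND3, the capital marks the single base left after the last whole codon. The stop codon of such a gene is completed when the messenger is polyadenylated. MT-ND4L and MT-ND4 share the 7 bases in capitals in the last sequence. All were taken from GENCODE 29 transcripts, on GRCh38, the assembly that hg38 names.
MT-ATP8 (chrM:8366-8572): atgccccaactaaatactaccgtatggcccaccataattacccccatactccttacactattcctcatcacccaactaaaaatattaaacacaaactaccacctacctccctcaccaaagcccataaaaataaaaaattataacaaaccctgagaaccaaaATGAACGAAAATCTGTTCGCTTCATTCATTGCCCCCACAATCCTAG
MT-ND3 end (chrM:10255-10404): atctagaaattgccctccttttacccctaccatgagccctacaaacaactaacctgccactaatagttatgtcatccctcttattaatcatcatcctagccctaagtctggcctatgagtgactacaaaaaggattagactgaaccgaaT
MT-ND4L end, MT-ND4 start (chrM:10730-10796): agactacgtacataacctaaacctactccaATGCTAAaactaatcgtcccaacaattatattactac

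The tables hold 1 value per comparison and none per library, and depth per library is unknown from them. Fold changes are log2 of the altered group over the control as the authors fitted them, and each SE given here is approximate, derived from the deposited F value. The table for FLAG-TASOR2 listed 358 of 14001 tested genes as higher, which is 2.56%, and 526 as lower. That for the knockout listed 268 of 13992 genes, or 1.92%, in either direction. That for the knockout with FLAG-TASOR listed at most 0.609% of at least 13957 genes as higher. By comparison, 29.7% of the 37 annotated mitochondrial genes were listed as higher with FLAG-TASOR2. That share counts the transfer RNA genes, most of which appear not to have been tested, so the denominators differ. Over the 15 messengers and ribosomal RNAs it was 73.3%. The mitochondrial genes lie in 1 locus and share precursors, so they are not independent observations. TASOR2 and TASOR were listed in the direction of their labels, and neither passed an adjusted p of 0.05. For FLAG-TASOR2 cells the authors' deposited table put TASOR2 at a log2 fold change of 2.26 with adjusted p 0.125. For the knockout, the authors' deposited table put TASOR at -1.08 with adjusted p 1.00. Neither gene was listed for the knockout with FLAG-TASOR. Markers of the labelled cell type could not be checked, since only genes past the thresholds appear. The depletion kit was of a type that removes ribosomal RNA, that of mitochondria included, before sequencing.

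Both mitochondrial ribosomal RNAs were listed as higher with FLAG-TASOR2. For MT-RNR1 (chrM:648-1601), the RNA of the small ribosomal subunit, the authors' deposited table gave a log2 fold change of 5.90, with p 0.0350 and adjusted p 0.366. Its approximate SE was 2.18, with a 95% interval of 0.58 to 11.23. For MT-RNR2 (chrM:1671-3229), the RNA of the large subunit, the authors' deposited table gave 5.60, with p 0.0300 and adjusted p 0.349. Here the approximate SE was 1.98 and the interval 0.75 to 10.45. The estimates were far above the listing threshold, but both intervals reached below it.

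The spread of the ribosomal RNAs was among the widest of the whole table. With 2 libraries per group and equal spread in both groups, an SE of this size corresponds to a log2 SD of about the same size. The degrees of freedom at which F gave the p were 6.01 for both, more than 2 libraries per group leave. The SE therefore does not measure the spread of these genes alone. A gene with so wide a spread is listed only if its fold change is large too. Among the 884 listed genes, MT-RNR1 had the second and MT-RNR2 the third highest approximate SE. The highest, at 2.79, belonged to RNA5-8SN2, a nuclear ribosomal RNA gene on chromosome 21 that was also listed as higher. For RNA5-8SN2 the authors' deposited table gave a p of 0.00594 (adjusted p 0.215). Its degrees of freedom were lower than those of other genes, so all its counts in the control were taken to be 0 and no fold is given. Its SE is derived from that fold, so its rank is not comparable with those of genes with counts in both groups. RNA5-8SN2 has near-identical copies that could share its reads. Among the 870 listed genes with counts in both groups, the highest SE outside the mitochondrial genome was 1.38. How completely ribosomal RNA was removed from each library has no value here, and its part in these fold changes was not tested.

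**Figure D1:**
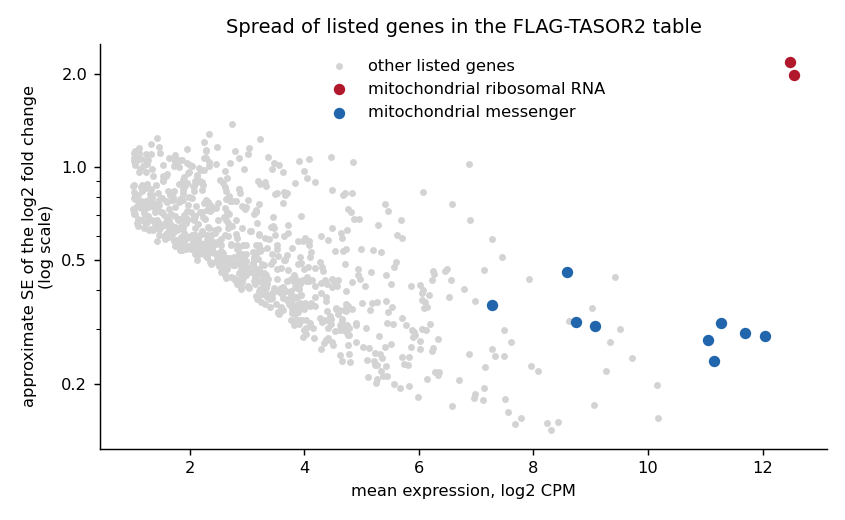
Approximate SE of the log2 fold change (vertical, log scale) against mean expression in log2 CPM for listed genes with counts in both groups, FLAG-TASOR2 over control, 1 point per gene. MT-RNR1 and MT-RNR2 stand alone at the upper right, at 2.18 and 1.98, while the 9 mitochondrial messengers lie between 0.24 and 0.46.

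Approximate group levels were derived from the deposited log2 fold change and log2 mean CPM (counts scaled to library size). MT-RNR1 stood at about 11256 CPM in FLAG-TASOR2 cells and 188 CPM in control cells. For MT-RNR2 these levels were about 11785 CPM in FLAG-TASOR2 cells and 242 CPM in control cells. Together the ribosomal RNAs took up about 2.30% of reads with FLAG-TASOR2 and 0.0430% in the control. All are group values, and with the spread given above the FLAG-TASOR2 libraries may differ widely from each other. These levels depend on how the deposited mean is split: read as a geometric mean, it gives MT-RNR1 44284 CPM in FLAG-TASOR2 cells and 739 CPM in control cells, and MT-RNR2 41928 CPM in FLAG-TASOR2 cells and 862 CPM in control cells. The shares are then 8.62% with FLAG-TASOR2 and 0.160% in the control. For genes listed in 2 tables, the median difference between their control levels was smaller with the arithmetic split, as given at the end. Per kilobase of gene, the ribosomal RNAs were above every listed messenger in FLAG-TASOR2 cells and below every one in control cells. With the geometric reading, the order in FLAG-TASOR2 cells is the same, while in control cells 3 of the 9 messengers lie below MT-RNR1. MT-RNR1 was at 11799 CPM per kb in FLAG-TASOR2 cells and 197 CPM per kb in control cells, and MT-RNR2 was at 7559 CPM per kb in FLAG-TASOR2 cells and 155 CPM per kb in control cells. The 9 listed messengers ranged between 1144 and 5311 CPM per kb with FLAG-TASOR2, and between 357 and 1996 CPM per kb in the control.

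**Figure D2:**
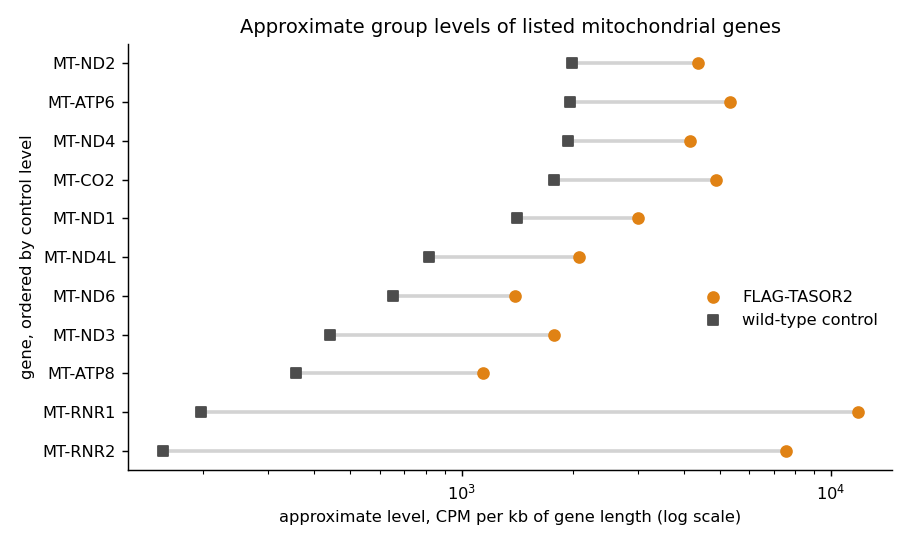
Approximate level of each listed mitochondrial gene in CPM per kb of gene length (log axis), with FLAG-TASOR2 as circles and the control as squares. MT-RNR1 and MT-RNR2 have the highest FLAG-TASOR2 levels, 11799 and 7559 CPM per kb, and the lowest control levels, 197 and 155 CPM per kb. With a geometric split of the mean, 3 of the 9 messengers lie below MT-RNR1 in the control.

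Mitochondrial RNAs were also the most abundant listed genes of this comparison. The 7 highest mean expression values in the authors' deposited table belonged to MT-RNR2, MT-RNR1, MT-ND4, MT-ND2, MT-ATP6, MT-CO2 and MT-ND1. Mean expression of these genes ran from 12.55 log2 CPM for MT-RNR2 to 11.04 for MT-ND1 in the authors' deposited table. Of the 20 most abundant listed genes, 10 were mitochondrial. A further 25 listed genes from the nucleus were at least as abundant as the least abundant listed mitochondrial gene, of which 8 were higher and 17 lower. Those listed as higher include TASOR2, the gene of the transgene, and MTATP6P1, a nuclear copy of MT-ATP6 described below.

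Of the 13 mitochondrial messengers, 9 were listed as higher, and the authors' deposited table put their log2 fold changes between 1.09 and 2.01. Their median was 1.34, below the 1.83 of all 358 higher genes that the authors' deposited table holds. It lay nearer to the 1.52 of the 181 genes listed as higher at or above the table's median expression. The summed level of the 9 messengers was about 2.23% of reads with FLAG-TASOR2 and 0.948% in the control. The authors' deposited table gave these messengers adjusted p-values between 0.139 and 0.252.

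Complex I, which takes electrons from NADH, has 7 mitochondrial subunit genes, and 6 were listed. MT-ND3 (chrM:10059-10404, shown above) had the highest log2 fold change of the 9 listed messengers, which the authors' deposited table put at 2.01 with an adjusted p of 0.203 (approximate SE 0.46). It stood at about 617 CPM with FLAG-TASOR2 and 153 CPM in the control. MT-ND4L (chrM:10470-10766) followed among the subunits of complex I with a log2 fold change of 1.34, by the authors' deposited table (approximate SE 0.32). It had about 615 CPM with FLAG-TASOR2 and 242 CPM in the control. The remaining 4 were close together. The authors' deposited table had MT-ND2 (chrM:4470-5511) at a log2 fold change of 1.12, MT-ND4 (chrM:10760-12137) at 1.10, MT-ND6 (chrM:14149-14673) at 1.10 and MT-ND1 (chrM:3307-4262) at 1.09. MT-ND4 was the most abundant messenger listed, with about 5724 CPM in FLAG-TASOR2 cells and 2678 CPM in control cells. MT-ND6 is the only listed gene on the opposite strand, and the labels name a library kit without a strand-specific step. Reads of RNA from either strand over MT-ND6 therefore cannot be told apart. MT-ND5, the longest messenger, was not listed.

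ATP synthase has 2 mitochondrial subunit genes, and both were listed. By the authors' deposited table, MT-ATP8 (chrM:8366-8572) was at a log2 fold change of 1.68 with adjusted p 0.199 (approximate SE 0.36). It stood at about 237 CPM with FLAG-TASOR2 and 74.0 CPM in the control. MT-ATP6 (chrM:8527-9207), which forms part of the proton channel, was put by the authors' deposited table at 1.43 with adjusted p 0.201 (approximate SE 0.31). Its level was about 3617 CPM in FLAG-TASOR2 cells and 1339 CPM in control cells. The 46 bases in capitals in the MT-ATP8 sequence belong to both genes, so their counts are not separate where reads fall there. MT-CO3 shares 1 base with the end of MT-ATP6 and was not listed, although no transfer RNA lies between these genes.

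Complex IV, which passes electrons to oxygen, had MT-CO2 as its 1 listed gene of 3. For MT-CO2 (chrM:7586-8269), the authors' deposited table gave a log2 fold change of 1.46 and the lowest p of the 11 listed mitochondrial genes, 0.000847, with adjusted p 0.139 (approximate SE 0.24). Its level was about 3346 CPM with FLAG-TASOR2 and 1219 CPM in the control. MT-CO1 and MT-CO3 were not listed. The only mitochondrial subunit gene of complex III, MT-CYB, was not listed either.

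**Figure D3:**
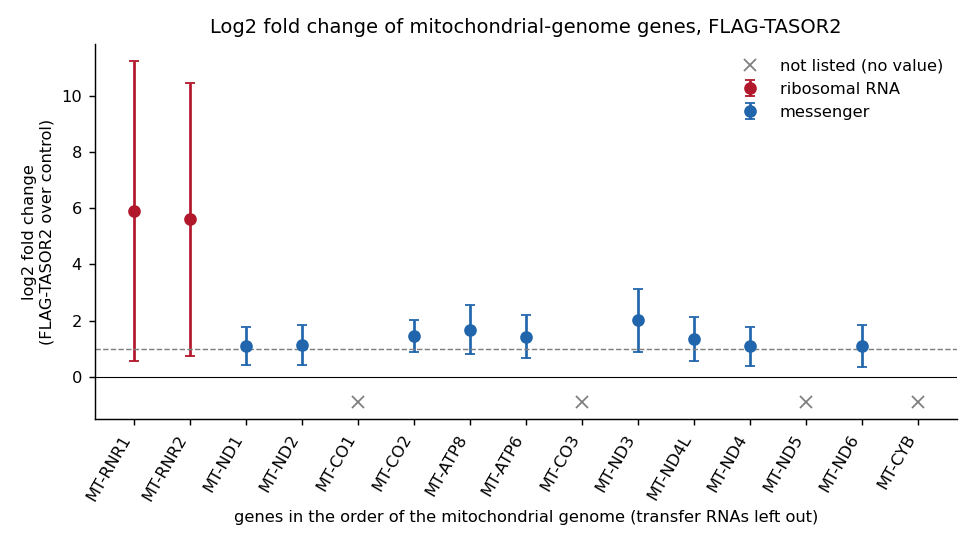
Log2 fold change of FLAG-TASOR2 over control for the 15 ribosomal RNA and messenger genes in genome order, with 95% intervals derived from the deposited F value. Dots are listed genes, crosses below 0 are genes with no value, and the dashed line is the listing threshold of 1. The ribosomal RNA intervals span 0.58 to 11.23 and 0.75 to 10.45 and contain all 9 messenger estimates.

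Differences between mitochondrial genes were not tested. All 9 messenger estimates lay inside the intervals of both ribosomal RNAs, and the intervals of all 36 pairs of messengers overlapped. A test needs values per library, which the tables do not hold.

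With that limit, the estimates were ordered by gene length more than by position. By the authors' deposited table, the 6 listed messengers shorter than 700 bases had log2 fold changes between 1.10 and 2.01, with a median of 1.45. The 3 longer ones that the authors' deposited table lists lay between 1.09 and 1.12. No messenger shorter than 700 bases was missing from the table, while the 4 that were not listed had lengths between 784 and 1812 bases. Across the 9 listed messengers, log2 fold change and length had a Spearman rho of -0.65 and a Pearson r of -0.68. MT-ND6, with 525 bases and a log2 fold change of 1.10, was the main exception among the short genes. These values are a description over 9 genes that share libraries and precursors, and the threshold of 1 cuts off the lower end. The length of 700 bases was chosen after the values were seen. Over the same genes, length had a rho of 0.67 with GC content and 0.92 with mean expression, and log2 fold change had a rho of -0.57 with GC content and -0.55 with mean expression. Their parts were not tested. Order along the genome gave a rho of -0.02. Messengers whose annotated length is not a multiple of 3, like MT-ND3, made up 4 of the 9 listed and 2 of the 4 not listed.

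**Figure D4:**
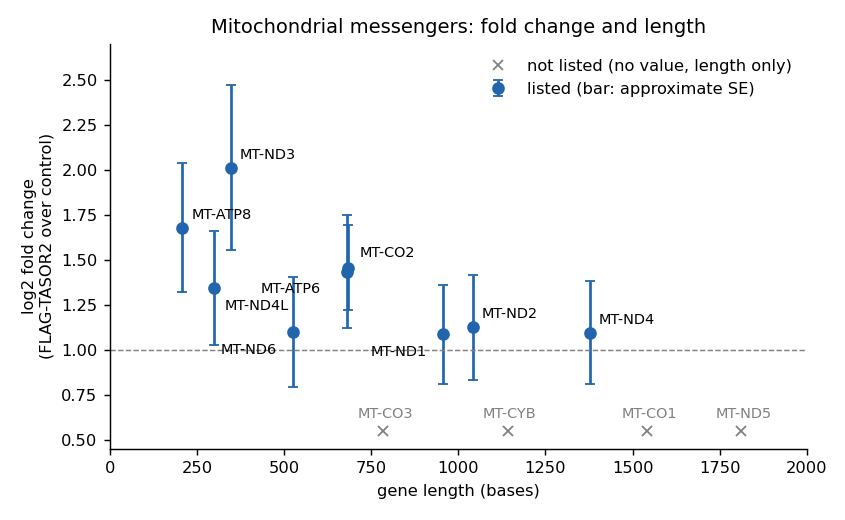
Log2 fold change of FLAG-TASOR2 over control against gene length in bases for the 9 listed mitochondrial messengers, with bars of 1 approximate SE. Crosses give the lengths of the 4 messengers with no value, and the dashed line is the listing threshold of 1. Genes under 700 bases reach up to 2.01, and those over 700 bases lie between 1.09 and 1.12.

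The transfer RNAs were not listed in any table (0 of 22). Most of them appear not to have been tested. The row numbers kept in the deposited tables follow the order of gene identifiers and end at 14001 for FLAG-TASOR2, the number of genes tested, so they were read as counting the tested genes. In this order, 19 transfer RNA genes have identifiers between those of MT-RNR2 and the next listed gene. In the authors' deposited table for FLAG-TASOR2 only 4 tested genes fall in that gap, so at least 15 of the 19 were not tested. For the knockout with FLAG-TASOR, 1 tested gene falls there, so at least 18 were not tested. MT-TV and MT-TL1, which border the ribosomal RNAs in the sequences above, have identifiers outside that gap, so whether they were tested is unknown.

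One nuclear copy of a mitochondrial gene was listed alongside its source. It was 1 of 407 such copies, whether tested or not, while 6.31% of all tested genes were listed in either direction with FLAG-TASOR2. MTATP6P1 lies on chromosome 1 (chr1:633696-634376) in a stretch that also holds copies of MT-ND1, MT-ND2, MT-CO1, MT-CO2, MT-ATP8 and MT-CO3. For FLAG-TASOR2, the authors' deposited table gave it a log2 fold change of 1.59 with adjusted p 0.250 (approximate SE 0.44), close to the 1.43 of MT-ATP6. Its level was about 364 CPM in FLAG-TASOR2 cells and 121 CPM in control cells. Over 681 aligned bases MTATP6P1 matched MT-ATP6 at 671, an identity of 98.5%. The 60 bases with the most differences, 3, are shown to make plain how little separates reads of the pair, with differing bases in capitals.
MT-ATP6 (chrM:8642-8701): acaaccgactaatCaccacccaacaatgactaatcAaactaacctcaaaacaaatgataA
MTATP6P1 (chr1:633811-633870): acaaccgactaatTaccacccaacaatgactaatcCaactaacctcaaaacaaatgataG
The sources used here do not say how reads that match both were assigned. The values of MT-ATP6 and MTATP6P1 are therefore uncertain with respect to each other. The other 6 copies in that stretch, with identities between 97.6% and 98.7%, were not listed. How reads were assigned is just as unknown for those copies and their mitochondrial sources, listed or not. This neighbourhood was chosen after the value of MTATP6P1 was seen.

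In knockout cells expressing FLAG-TASOR, MT-RNR2 was the 1 listed mitochondrial gene of 37. Over all genes, at most 0.609% were listed as higher and 1.87% in either direction. A count of 1 is too small to set against these shares. The authors' deposited table put MT-RNR2 at a log2 fold change of 1.02, just past the listing threshold, with p 0.00789 and adjusted p 0.999. Its approximate SE was 0.25, with a 95% interval of 0.40 to 1.65. Its level came to about 514 CPM in knockout cells with FLAG-TASOR and 253 CPM in control cells. The control level derived from the FLAG-TASOR2 table was 242 CPM, and the comparisons share control libraries. With the geometric reading, the control level is 269 CPM from this table and 862 CPM from that for FLAG-TASOR2. The approximate SE of MT-RNR2 was 0.25 in this comparison, against 1.98 in that of FLAG-TASOR2. The control libraries are shared, but each SE comes from its own fit. With a log2 fold change of 1.02, MT-RNR2 could be listed here only with a small SE. In which libraries the wider spread lies was not tested, since none has separate values. Whether the level given for FLAG-TASOR2 cells rests mostly on 1 library was not tested. MT-RNR1 and the messengers were not listed for the knockout with FLAG-TASOR.

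In TASOR knockout cells without a transgene, no mitochondrial gene was listed (0 of 37 in the authors' deposited edgeR-type table, where all listed genes had an unadjusted p below 0.05), against 1.92% of all genes tested. A nuclear ribosomal RNA gene, RNA5-8SN5, was listed as lower there, and the authors' deposited table gave it a p of 6.15e-05 (adjusted p 0.430). All its counts in the knockout were taken to be 0, by the same sign as above, and no fold is given. How many of the 37 annotated mitochondrial genes were tested for the knockout is unknown. The difference between the comparisons was not tested for any mitochondrial gene, since genes that are not listed have no value.

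Few nuclear genes that serve the same pathway were listed. The 12 lists covered 311 genes for mitochondrial DNA maintenance, transcription, RNA processing, translation, the respiratory chain, stress response and mitophagy. Of these, 2 were listed with FLAG-TASOR2 (0.643%, against 6.31% of all tested genes listed in either direction) and 0 in each of the other tables. Over all genes, those tables listed 1.92% for the knockout and at most 1.87% for the knockout with FLAG-TASOR in either direction. Shares of the lists are over all 311 members, whether tested or not, while those over all genes count tested genes only. Among 86 nuclear subunits of the respiratory chain and ATP synthase, the partners of the mitochondrial products, 1 was listed. NDUFS6, an accessory subunit of complex I, was put by the authors' deposited table at 1.05 with adjusted p 0.201 (approximate SE 0.23). MRPL1, a protein of the large mitochondrial ribosomal subunit that holds the RNA of MT-RNR2, was put by the authors' deposited table at -1.01 with adjusted p 0.248 (approximate SE 0.28). None of the 20 genes for mitochondrial DNA maintenance, the 17 for transcription (such as POLRMT, the mitochondrial RNA polymerase) or the 43 for RNA processing and decay was listed in any table.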

How the data were processed

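Ribosomal RNA-depleted total RNA was sequenced in 8 K-562 libraries, 2 per group, prepared with NEBNext kits and 13 PCR cycles per the labels' protocols. Per the submitters' processing notes, DESeq2, edgeR, Salmon, STAR 2.7.8 and the hg38 build were used, in roles they do not state. The authors' 3 deposited gene tables were used. Per the file headers, each deposited row holds the log2 of a fold change and of a mean CPM, the F score of a test, its p-value and its adjusted p-value. No model could be refitted. Whether the 2 libraries of a group came from separate cultures is not given, so the p-values cover only the spread between these libraries, which may be technical.

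The approximate SE was the size of the log2 fold change over the square root of F, and its 95% interval used the degrees of freedom at which F gives the deposited p. Genes with 1 degree of freedom less than the rest were treated as having a group at 0. Group levels take the deposited mean CPM as the arithmetic mean of both groups. The number of genes tested was the adjusted over the unadjusted p of the gene with the lowest p or, where this failed, from the largest row number. The accuracy of the approximate SEs and group levels was not tested, since the tables hold no value per library. Gene positions and sequences came from GENCODE 29, and nuclear copies were aligned with Biopython 1.88. Python 3.11.15, pandas 2.3.3, NumPy 2.4.6, SciPy 1.17.1 and matplotlib 3.10.9 were used. Every listed member was named, with every listed gene of 14 nuclear lists. Members, lists and rules were chosen with earlier results of these data known. Alternatives were other listing thresholds, the mean in place of the median, leaving out the ribosomal RNAs, another route to the SE and, chosen after seeing the data, a geometric split of the mean. Tables of transposable elements were not used here.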

Additional observations from a re-analysis of the deposited data

How the results depend on the processing

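With an absolute log2 fold change above 2, 3 mitochondrial genes remained listed for FLAG-TASOR2 in place of 11, and 0 in place of 1 for the knockout with FLAG-TASOR. With an adjusted p below 0.05 the numbers were 0 and 0. An unadjusted p below 0.01 left 8 with FLAG-TASOR2 and took out both ribosomal RNAs and MT-ND6. The mean log2 fold change of the listed genes with FLAG-TASOR2 was 2.17, against a median of 1.43, and the median without the ribosomal RNAs was 1.34. Of the 2 nuclear pathway genes, 1 had a p below 0.01 and 0 an absolute log2 fold change above 2. The median approximate SE was 0.31 from F and 0.48 from the p with a normal quantile.

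Approximate levels depend on how the mean is split. With a geometric split the control level of MT-RNR2 was 862 CPM from the FLAG-TASOR2 table and 269 CPM from the table of the knockout with FLAG-TASOR, against 242 and 253 CPM with the arithmetic split. Over the 60 genes listed in both tables, control levels differed by a median of 0.21 log2 with the geometric and 0.13 with the arithmetic split. The largest differences were 3.44 log2 with the geometric and 0.72 with the arithmetic split. No paired analysis was possible because the tables hold no value per library, and for the same reason no library could be left out in turn (not run). Depth per library is unknown, so no detection limit can be given for genes that are not listed.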
